A study of Rattus norvegicus with 12 samples.

Results

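The interaction of Yap and Wwtr1 knockdown was measured gene by gene in cultured rat cardiac fibroblasts: the effect of the double knockdown minus the sum of both single knockdown effects, on the log2 scale. All 12 libraries entered the comparison, and the genes described are the 10102 of 12271 in the deposited table whose normalized read count averaged at least 100 over those libraries. The cells came from the ventricles of Sprague Dawley rats at postnatal day 2, and bulk RNA was sequenced 48 h after siRNA transfection. Each of the 4 groups held 3 libraries: negative siRNA (the MISSION universal controls #1 and #2), Yap siRNA, Wwtr1 siRNA, and Yap plus Wwtr1 siRNA, here called the double knockdown. Each target received a pair of siRNAs at 25 nM each. The labels give the 48 h from transfection, while a passage of the methods can be read as counting them from a later medium change. The methods describe separate litters as biological replicates. Whether the total siRNA amount in the double knockdown matched that of the other groups is not stated in the sources used here, and the siRNA label of the double knockdown lists only the Wwtr1 reagents. The labels and title name cardiac fibroblasts while the series design text names myocytes, and knockdown by siRNA leaves part of each transcript in place.

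Yap (gene Yap1) and Taz (gene Wwtr1) are paralogous co-activators without a DNA-binding domain of their own. They enter the nucleus when the Hippo kinases Mst and Lats are inactive and bind Tead factors, and the genes they drive include the CCN matricellular proteins and, as negative feedback, the angiomotins and Lats2. In fibroblasts they are known for coupling matrix stiffness to proliferation and to the myofibroblast state. Because each can stand in for the other, 3 outcomes of joint loss can be told apart. In synergy the double effect is larger than the sum of the single effects. In buffering it falls short of the sum. In addition it equals the sum.

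Promoter sequences are shown for genes that stand for the main patterns below, so that the letters can be read beside the values. They come from RefSeq (build GRCr8), each is an 80-base stretch from the 250 bases before the transcription start, written 5′ to 3′ on the gene's own strand, and capitals mark motif matches. The first 4 are interferon-induced genes searched for GAAANNGAA on either strand, matches of which can overlap in a longer run. The last 2, Amotl2 and Wwc2, fell in synergy and were searched for the Tead-type letters GGAATG, seen here on the opposite strand.
Apol9a (chr7:111028235-111028314, minus strand): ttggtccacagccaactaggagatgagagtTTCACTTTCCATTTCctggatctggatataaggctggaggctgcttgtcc
Oas1a (chr12:41330386-41330465, plus strand): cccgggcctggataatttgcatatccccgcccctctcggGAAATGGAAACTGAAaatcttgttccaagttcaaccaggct
Oas1b (chr12:41395862-41395941, minus strand): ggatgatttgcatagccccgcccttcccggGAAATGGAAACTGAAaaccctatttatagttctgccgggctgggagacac
Irf7 (chr1:205800048-205800127, minus strand): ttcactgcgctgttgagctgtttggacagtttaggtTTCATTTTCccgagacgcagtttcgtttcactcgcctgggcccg
Amotl2 (chr8:112182513-112182592, plus strand): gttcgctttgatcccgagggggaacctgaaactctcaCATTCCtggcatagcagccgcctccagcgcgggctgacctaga
Wwc2 (chr16:50991016-50991095, plus strand): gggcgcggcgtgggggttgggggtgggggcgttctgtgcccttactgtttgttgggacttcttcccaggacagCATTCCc

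GAAANNGAA was present in 19 of the 27 interferon-induced list genes with a promoter in the table (70.4%), against 7.99% of all 27457 promoters and 6.11% of the 8130 promoters of the genes described here. GGAATG was present in 2 of 20 promoters of the genes that fell in synergy (10%). That is about as frequent as in all promoters (11.8%) and in those of the genes described here (9.98%). It was present in 1 of 26 promoters of upward synergy genes (3.85%), 5 of 27 of buffering genes (18.5%) and 2 of 33 of additive genes (6.06%). The sterol-type letters TCACNCCAC were found in 0 of 17 promoters of the sterol list and 0.976% of all promoters. At so low a share, 17 promoters cannot show whether the letters are rarer there. These are letter matches in a fixed window and not measured binding.

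Library depth ran from 33.9 to 41.1 M recovered reads. Double knockdown replicates 2 and 3 were the deepest (41.0 and 41.1 M), with 127 and 132 genes listed at 0. All other libraries reached at most 36.3 M, with 213 to 305 genes at 0. The part of this depth in the results was not tested. Fibroblast markers (13 genes, among them Col1a1, Dcn and Vim) summed to between 3236174 and 4398746 normalized counts per library, cardiomyocyte markers (20 genes) to between 55794 and 118566, and mesothelial genes (11 genes) to between 3367 and 5864. Endothelial markers (18 genes) summed to between 39449 and 43285 in the double knockdown, above all 9 other libraries (25431 to 38727). Double knockdown replicate 3 stood apart. The SD of its log2 deviations from its group mean was 0.321, against 0.259 in double knockdown replicate 1 and 0.156 to 0.208 in the other 10 libraries. Its macrophage markers (22 genes) summed to 74553, against 12319 and 21925 in the other double knockdown libraries and 18342 to 48098 in the other groups. In these bulk libraries fewer cells of a type and less RNA per cell cannot be told apart. Values without this library are given below for the list medians it moved by over 1.5 times and for some single genes, and the part of these marker levels in the results was otherwise not tested.

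The targeted genes were checked first. Yap1 stood at 3042, 3776 and 2984 normalized counts in the negative siRNA libraries, 532, 576 and 625 after Yap siRNA alone, 3169, 3151 and 3184 after Wwtr1 siRNA alone, and 713, 739 and 1474 after both. Wwtr1 stood at 2364, 2565 and 2280 in the negative siRNA libraries, 2134, 2500 and 2375 after Yap siRNA alone, 524, 550 and 637 after Wwtr1 siRNA alone, and 818, 731 and 1056 after both. Each single siRNA lowered its own target and left the other within the range of the negative libraries or close to it. The residual level of each target was higher in every double knockdown library than with its siRNA alone. The interaction was 0.71 for Yap1 (SE 0.31, limma adjusted p = 0.325) and 0.63 for Wwtr1 (SE 0.18, limma adjusted p = 0.123), and neither passed. Without double knockdown replicate 3 the values were 0.368 for Yap1 and 0.485 for Wwtr1. With DESeq2 the adjusted p for Wwtr1 was 0.0323. The part of these residual levels in the interactions below was not tested.

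The interaction was called (limma, Benjamini-Hochberg adjusted p under 0.05) in 115 of the 10102 genes, higher than the sum in 47 and lower in 68. On the same genes edgeR called 97 and DESeq2 470, totals against which the list counts of these tools stand. Over all 11871 genes tested, those with a mean of at least 10, limma called the interaction higher in 50 (0.421%) and lower in 72 (0.607%). Before adjustment, a p under 0.05 was reached in 735 tested genes above 0 (6.19%) and 928 below 0 (7.82%), and in 663 and 861 of the genes described. From the same fit, the double knockdown was called higher than negative siRNA in 2035 genes (17.1%) and lower in 1853 (15.6%). Yap siRNA was called higher in 359 (3.02%) and lower in 211 (1.78%), and Wwtr1 siRNA higher in 594 (5%) and lower in 470 (3.96%). All these effects use the same negative siRNA libraries.

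For most genes the double effect lay close to the sum of the single effects, but the double effect was called in only 3574 of the 10102. A gene that no siRNA moved lies at the sum as well, so this closeness does not show addition. The interaction had a median of 0.004 on the log2 scale, a 5th percentile of -0.515 and a 95th of 0.56, and 50.7% of the genes lay above 0. Its median standard error was 0.166 and the 95% interval reached a median of 0.361 to either side, which sets how small a departure from the sum could be detected with 3 libraries a group. The smallest called interaction was 0.402 in size and the median called one 0.882. Of 52 genes with an interaction over 2 in size only 10 were called. The least abundant gene described was Bmp2, with a mean of 100.15, and the most abundant left out was Esm1, with 99.97.

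**Figure D1:**
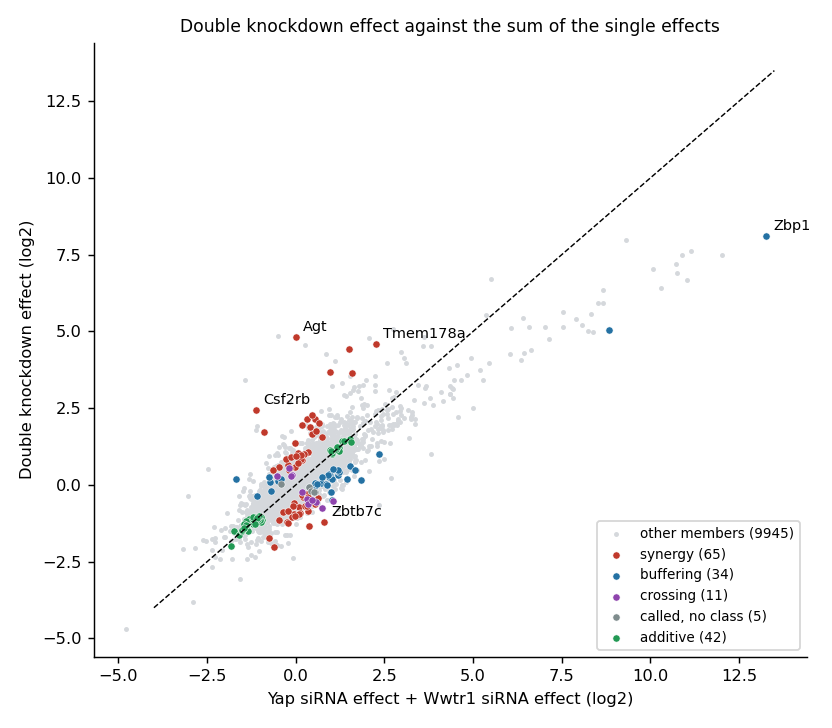
Each point is 1 of the 10102 genes; the horizontal axis gives the sum of the Yap and Wwtr1 siRNA effects and the vertical axis the double knockdown effect (both log2 against negative siRNA), with the dashed line marking equality. Genes with a called interaction are coloured by class (65 synergy, 34 buffering, 11 crossing, 5 in no class) beside the 42 additive genes. Most genes lie near the line, where genes that no siRNA moved also fall.

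The classes are defined by signs and thresholds, and since the interaction, the double effect and the single effects share libraries, the sign relations within a class follow from its definition. In 65 genes the interaction was synergistic: it and the double effect were both called and had the same sign, upward in 35 and downward in 30. In 57 of these neither single knockdown was called. In 34 genes the interaction was buffering: it opposed the sum of the single effects, at least 1 of which was called. In 33 of these both single effects pointed in 1 direction. The double effect itself was still called in 15 and not in 19. Another 11 genes met both definitions because the double knockdown moved to the opposite side of negative siRNA, which is named crossing here, and 5 called genes met neither.

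Simple addition needs a precise estimate, not only a p that misses the threshold. Among 709 genes whose double effect was called and over 2-fold, the 95% interval of an uncalled interaction lay within 1.5-fold of the sum in 42, which are named additive (0.354% of all genes tested). Of these 14 rose and 28 fell. Both single effects were called in 23, the Wwtr1 effect alone in 10, the Yap effect alone in 8 and neither in 1. In 32 of the 709 the interaction was called, and in 635 neither addition nor its absence was shown. With a margin of 2-fold in place of 1.5-fold, 199 were additive.

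The gene with the largest called synergy was Agt, angiotensinogen, the precursor of the angiotensin peptides. It stood at 24.6, 39.98 and 37.2 normalized counts in the negative siRNA libraries, 30.7, 52.5 and 46.1 after Yap siRNA alone, 11.5, 50 and 30.5 after Wwtr1 siRNA alone, and 917, 889 and 1119 after both. Only the double knockdown libraries were high, and they overlapped no other group. Agt reached the mean of 100 only through the double knockdown, as did 79 of the genes described (0.782%), of which 5 were called: Agt, Prg4, Adcyap1r1, Ypel4 and Zbp1. Genes this low elsewhere could enter only by being high there, so their separation is a description. The sum of the single effects gives a level of 33.2, against a measured geometric mean of 970, an interaction of 4.83 (SE 0.61, limma adjusted p = 0.00524). Of the 14 angiotensin, endothelin and natriuretic genes with a mean of at least 100 it was the 1 called by limma and edgeR, DESeq2 called 2, and the list median was 0.01, running from -0.111 without double knockdown replicate 1 to 0.203 without replicate 3.

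Csf2rb is the shared beta subunit of the receptors for GM-CSF and interleukins 3 and 5. It lay below the negative libraries after either single siRNA, though neither single effect was called, and above them after both. Its level was 320, 311 and 258 in the negative siRNA libraries, 231, 227 and 179 after Yap siRNA alone, 142, 192 and 256 after Wwtr1 siRNA alone, and 1655, 1088 and 2362 after both. The interaction was 3.56 (SE 0.38, limma adjusted p = 0.00518). Without double knockdown replicate 3 it was 3.29 (limma adjusted p = 0.00367). Csf2rb is on the macrophage list, whose summed level in double knockdown replicates 1, 2 and 3 was 12319, 21925 and 74553. Csf2rb was highest in the library with the highest sum, and above all 9 libraries of the other groups in the library with the lowest, where Cx3cr1 was listed at 0. The part of macrophage content in its rise was not tested. It was the 1 gene of 21 on the list whose interaction was called by limma and edgeR, and DESeq2 called 2. The list median was 0.211 with 19 genes above 0, -0.515 with 19 below 0 without double knockdown replicate 3, and 0.852 without replicate 1.

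Rgs2, a regulator that switches off G protein signalling, and Mmp2, a gelatinase that degrades collagen, rose only with both siRNAs. Rgs2 stood at 345, 341 and 272 in the negative siRNA libraries, 391, 358 and 345 after Yap siRNA alone, 492, 326 and 419 after Wwtr1 siRNA alone, and 1394, 1624 and 1216 after both (interaction 1.59, SE 0.23, limma adjusted p = 0.0103). For Mmp2 the single knockdown libraries reached at most 50243 and the negative libraries 49416, while the double knockdown libraries stood at 82017, 71885 and 100050 (interaction 1.12, SE 0.16, limma adjusted p = 0.0103). In both genes every double knockdown library lay above all 9 others, as in 8.64% of all genes described. Among 26 matrix proteases and inhibitors, Mmp2 was called higher and Prss23, a serine protease, lower by limma, and the list median was 0.061, or -0.061 without double knockdown replicate 3 and 0.119 without replicate 2.

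Notch1, a receptor for Delta and Jagged ligands, was below the negative libraries in most single knockdown libraries and above them in the double knockdown. Its level was 1606, 1698 and 1701 in the negative siRNA libraries, 1226, 1330 and 1423 after Yap siRNA alone, 1135, 1342 and 1635 after Wwtr1 siRNA alone, and 2219, 2370 and 2491 after both. Neither single effect was called, the double effect was 0.50, and the interaction was 1.13 (SE 0.16, limma adjusted p = 0.0103). None of the other 7 Notch pathway genes with a mean of at least 100 was called by limma, edgeR or DESeq2. Nabp1, a single-stranded DNA-binding protein, departed from the sum by 1.82 (SE 0.27, limma adjusted p = 0.0139), with 874, 853 and 885 in the double knockdown and no more than 317 elsewhere.

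The other upward synergy genes of largest size were less firmly placed. Prg4 (lubricin, 2.94), Adcyap1r1 (the PACAP receptor, 2.73), Ass1 (argininosuccinate synthase, 2.60), Tmem178a (2.36), Ypel4 (2.05), Tgfbi (a matrix protein induced by TGF-beta, 1.83) and Mgst2 (a microsomal glutathione transferase, 1.77) were called with all 12 libraries. In each the lowest double knockdown library exceeded the highest library of any other group, which held for 873 of all genes described (8.64%) and which the filter favours in Prg4, Adcyap1r1 and Ypel4. Their calls were lost in 3 to 10 of the 12 fits that left out 1 library, with a largest adjusted p of 0.124 for Prg4 and 0.0697 for Adcyap1r1. Prg4 stood at 861, 724 and 1981 in the double knockdown, highest in replicate 3, and at 25.99 to 113.5 elsewhere. Emilin1, an elastic fibre glycoprotein, rose less (0.63, limma adjusted p = 0.0311) and lost its call in 10 of the 12 such fits. Prg4 and Emilin1 were the only genes called by limma of 33 matrix glycoproteins and proteoglycans, where DESeq2 called 6. The list median was 0.05 with 17 genes above 0, and -0.151 with 13 above 0 and 3 called without double knockdown replicate 3.

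A further 4 upward synergy genes outside the naming rule were chosen after their values were seen, and they are given as single genes with no list behind them. Cp (ceruloplasmin, a copper ferroxidase) stood at 2334, 2559 and 1712 in the negative siRNA libraries, 3029, 2790 and 2366 after Yap siRNA alone, 2549, 2213 and 2154 after Wwtr1 siRNA alone, and 8217, 6837 and 9001 after both (interaction 1.47, SE 0.21, limma adjusted p = 0.0106). Slc39a14, a zinc and iron importer, departed from the sum by 1.18 (limma adjusted p = 0.0173), Steap3, a ferrireductase, 1.05 (limma adjusted p = 0.0192), and Sod2, the mitochondrial superoxide dismutase, 1.37 (limma adjusted p = 0.0311). None of their single effects was called. Without Wwtr1 siRNA replicate 2 the adjusted p for Slc39a14 was 0.0503, without Yap siRNA replicate 3 that for Steap3 was 0.0579, and Sod2 lost its call in 8 of the 12 such fits.

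Downward synergy included a pair of Hippo pathway regulators. Amotl2, an angiomotin that binds and restrains Yap and is itself a Yap target, stood at 13707, 13894 and 15015 in the negative siRNA libraries, 9170, 10267 and 11321 after Yap siRNA alone, 10182, 11606 and 13639 after Wwtr1 siRNA alone, and 4105, 4235 and 4625 after both. The Yap effect was -0.47 (limma adjusted p = 0.0302), the Wwtr1 effect -0.28 (limma adjusted p = 0.138) and the double effect -1.72. Its interaction was -0.97 (SE 0.15, limma adjusted p = 0.0155), with an expected level of 8438 against a measured 4316. Wwc2, a scaffold of the Kibra family that activates Lats kinases, was lower in the double knockdown (3123, 2950 and 2985) than in any other library (4476 to 6784), with an interaction of -0.89 (SE 0.11, limma adjusted p = 0.00518). Double knockdown libraries that all lay below every other library were found in 775 of all genes described (7.67%). Among 16 Hippo kinases, scaffolds and Tead partners Wwc2 was the 1 called by limma and edgeR, DESeq2 called 2, and the median was 0.025, running from -0.042 without Yap siRNA replicate 1 to 0.082 without Yap siRNA replicate 2. Among 17 direct Yap and Tead targets Amotl2 was the 1 called by limma and edgeR, DESeq2 called 2, the median was -0.204, and 11 lay below 0. That median was -0.098 without Yap siRNA replicate 2 and -0.318 without Wwtr1 siRNA replicate 1.

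All 5 CCN genes with a mean of at least 100 had an interaction below 0, with a median of -0.594, but none was called by limma or edgeR and 2 were by DESeq2. Ccn1 (Cyr61) stood at 44368, 45692 and 50346 in the negative siRNA libraries, 29779, 33073 and 35326 after Yap siRNA alone, 31665, 36526 and 42804 after Wwtr1 siRNA alone, and 15553, 17224 and 12848 after both. Its double effect of -1.63 was called, and its interaction of -0.76 (SE 0.18, limma adjusted p = 0.0645) was not. The interaction was -0.59 for Ccn2 (CTGF, limma adjusted p = 0.333), -0.71 for Ccn5 (limma adjusted p = 0.149), -0.20 for Ccn4 and -0.09 for Ccn3. Ccn5 passed when limma took replicate number as a block. Ccn3, Ccn1, Ccn2 and Ccn5 all fell in the double knockdown, and their 95% intervals ran below -0.585, so addition was not shown either. At an unadjusted p under 0.05, 3 of the 5 lay below 0, and without double knockdown replicate 3 the median was -0.432 with 4 of 5 below 0.

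Zbtb7c, a zinc finger transcription factor, fell only when the knockdowns were joined. It stood at 714, 536 and 560 in the negative siRNA libraries, 746, 831 and 841 after Yap siRNA alone, 807, 751 and 784 after Wwtr1 siRNA alone, and 196, 291 and 311 after both. Every double knockdown library lay below all others, as in 7.67% of all genes described. Neither single effect was called, and the interaction was -2.004 (SE 0.23, limma adjusted p = 0.00518). Of 29 TGF-beta and BMP pathway genes, 3 ligands of the BMP branch fell in synergy by limma, while edgeR called 2 genes of the list and DESeq2 called 4: Gdf6 (-1.40, limma adjusted p = 0.0462), Bmp4 (-1.02, limma adjusted p = 0.0401) and Bmp6 (-0.94, limma adjusted p = 0.0196). Bmp4 stood at 831, 815 and 847 in the double knockdown and between 1542 and 2378 elsewhere. Bmp6 stood at 1597, 1483 and 1372, against 2739 to 3573 elsewhere. Their calls were lost in 11, 10 and 3 of the 12 fits without 1 library, and the list median was -0.045, or 0.021 without double knockdown replicate 3 and -0.115 without replicate 2.

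Vegfc, P4ha1, Prss23 and Adamtsl3 were further single genes with downward synergy. Vegfc, a lymphatic growth factor, stood at 1077, 1071 and 1093 in the double knockdown and between 1585 and 2651 elsewhere (interaction -0.66, limma adjusted p = 0.0432). Prss23 stood at 4222, 5086 and 3513, against 7355 to 9828 elsewhere (-0.98, limma adjusted p = 0.0196). P4ha1, a subunit of the prolyl hydroxylase that matures collagen, stood at 12304, 12125 and 11926, against 16056 to 22845 elsewhere (-0.60, limma adjusted p = 0.0454). These were lowest in all 3 double knockdown libraries, as were 7.67% of all genes described. Their calls were lost in 9, 5 and 10 of the 12 fits without 1 library, respectively. Adamtsl3, an extracellular matrix protein, departed from the sum by -1.71 (limma adjusted p = 0.0311) and lost its call in 7. Each of Vegfc, P4ha1 and Prss23 was the 1 gene called lower by limma in its list, of 25 growth factors and receptors, 19 collagen modifying enzymes and 26 proteases. In either direction edgeR called 1, 0 and 2 genes of these lists and DESeq2 called 5, 4 and 5.

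**Figure D2:**
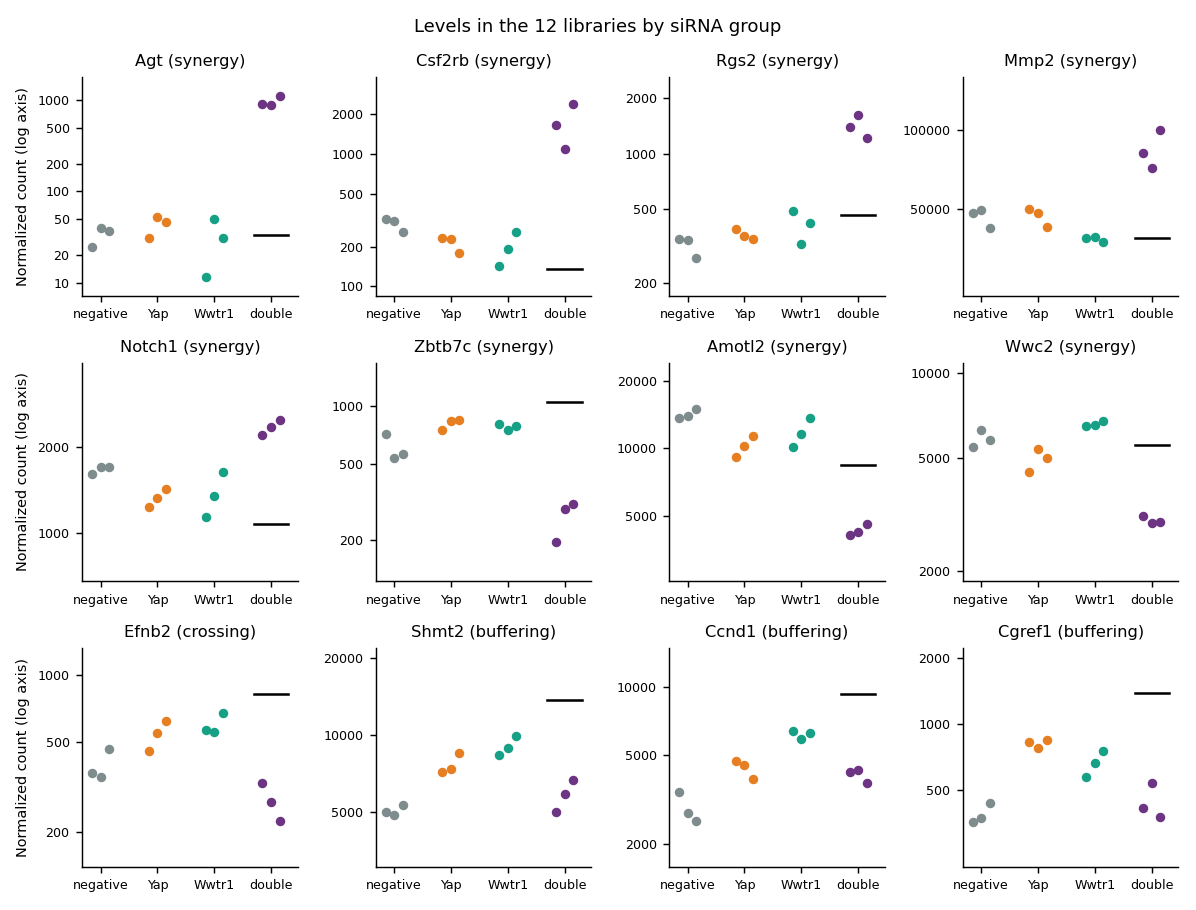
Normalized read count (log axis) in each of the 12 libraries for 12 genes, 3 points a group in replicate order; the black bar is the level that the sum of both single log2 effects gives for the double knockdown. Double knockdown points lie above the bar in Agt, Csf2rb, Rgs2, Mmp2 and Notch1 and below it in the other 7 genes.

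Buffering is shown here by examples. In some genes the single knockdowns raised a gene and the double knockdown left it near negative siRNA. Shmt2, the mitochondrial enzyme that makes one-carbon units from serine, stood at 4991, 4854 and 5310 in the negative siRNA libraries, 7147, 7359 and 8497 after Yap siRNA alone, 8326, 8885 and 9914 after Wwtr1 siRNA alone, and 4972, 5840 and 6629 after both. The Yap effect was 0.60 (limma adjusted p = 0.0117), the Wwtr1 effect 0.84 (limma adjusted p = 0.00107) and the double effect 0.19 (limma adjusted p = 0.187). The interaction was -1.24 (SE 0.15, limma adjusted p = 0.00518).

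Cgref1, a calcium-binding growth regulator, and Psen2, a catalytic subunit of gamma-secretase, were likewise higher with either single siRNA and near negative siRNA with both. Cgref1 stood at 359, 376 and 438 in the negative siRNA libraries, 829, 782 and 847 after Yap siRNA alone, 573, 663 and 758 after Wwtr1 siRNA alone, and 416, 542 and 378 after both (interaction -1.65, SE 0.21, limma adjusted p = 0.00524). The double knockdown overlapped negative siRNA and lay below every single knockdown library. Psen2 stood at 1576, 1699 and 1346 in the double knockdown, near the 1581 to 2143 of negative siRNA and under the 2288 to 3037 of the single knockdowns (interaction -1.22, SE 0.19, limma adjusted p = 0.0151).

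In Ccnd1 and Tnik the double effect was called but no larger than the larger single one. Ccnd1, cyclin D1, which drives entry into S phase, stood at 3417, 2748 and 2544 in the negative siRNA libraries, 4662, 4510 and 3880 after Yap siRNA alone, 6339, 5837 and 6256 after Wwtr1 siRNA alone, and 4177, 4280 and 3752 after both. The effects were 0.59, 1.09 and 0.50 for Yap, Wwtr1 and both, all called, and the interaction was -1.19 (SE 0.15, limma adjusted p = 0.00524). The double knockdown therefore stood with Yap siRNA and below Wwtr1 siRNA. Of 23 D cyclins, CDK inhibitors and p53 targets Ccnd1 was the 1 called by limma and edgeR, DESeq2 called 3, and the list median was -0.023 (-0.121 without Yap siRNA replicate 1, 0.022 without double knockdown replicate 2 and -0.048 without replicate 3). Tnik, a kinase of the Wnt pathway, rose by 0.95, 1.41 and 1.00 with an interaction of -1.36 (SE 0.22, limma adjusted p = 0.0192), a call lost without Yap siRNA replicate 3 (adjusted p = 0.0608).

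Upward buffering, in which a fall was undone or reduced, was rarer, with 7 genes. Enc1, an actin-binding Kelch protein, fell with Wwtr1 siRNA (287, 362 and 256 against 731, 843 and 837 with negative siRNA) and stood at 696, 677 and 1594 in the double knockdown, highest in replicate 3. Its interaction was 1.87 (SE 0.38, limma adjusted p = 0.0442), the call was lost in 9 of the 12 fits without 1 library, and without a library the value ran from 1.46 to 2.08.

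Crossing was clearest in Efnb2, ephrin-B2, a membrane ligand of Eph receptors. Its level was 366, 351 and 469 in the negative siRNA libraries, 458, 548 and 620 after Yap siRNA alone, 570, 557 and 673 after Wwtr1 siRNA alone, and 330, 273 and 224 after both. The single knockdowns lay at or above most negative libraries and the double knockdown below all of them. The Wwtr1 effect was 0.61 (limma adjusted p = 0.0478), the double effect -0.53 (limma adjusted p = 0.0345) and the interaction -1.59 (SE 0.24, limma adjusted p = 0.0151). Stat3 (0.42, limma adjusted p = 0.045), a transcription factor of cytokine signalling, and Npc1 (0.41, limma adjusted p = 0.0399), which exports cholesterol from lysosomes, crossed upward by small amounts, and each lost its call in 11 of the 12 fits without 1 library. With edgeR the adjusted p for Stat3 was 0.051. Bc1 (-1.48, limma adjusted p = 0.0196) crossed downward. It is a small RNA whose sequence is shared with repeats in the genome, so its counts are uncertain.

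Sterol synthesis held many of the additive genes. Of 24 sterol genes 23 fell in the double knockdown, 22 with Wwtr1 siRNA and 9 with Yap siRNA, and no interaction was called by limma, edgeR or DESeq2, with 2 at an unadjusted p under 0.05. The medians were -0.357 for Yap, -0.884 for Wwtr1, -1.16 for their sum and -1.121 for the double knockdown. Of 15 sterol genes that fell over 2-fold, 11 were additive by the 1.5-fold margin on the log2 scale. On the scale of normalized counts, where single falls are subtracted, 21 of the 24 lay above the sum and 3 below, so addition of this list depended on the scale. They make up 11 of the 42 additive genes overall.

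Fdps, which makes farnesyl diphosphate, stood at 17922, 16398 and 17683 in the negative siRNA libraries, 12032, 10919 and 13424 after Yap siRNA alone, 8213, 8851 and 8858 after Wwtr1 siRNA alone, and 5738, 5939 and 6678 after both. The 4 groups followed each other without overlap, and the log2 sum gives 6023 against a measured geometric mean of 6105, while the linear sum gives 3431 against a mean of 6118. The interaction was 0.02 with a 95% interval of -0.24 to 0.28. Acat2, an acetyl-CoA acetyltransferase at the start of the pathway, had an interaction of -0.01 (interval -0.40 to 0.37), and Cyp51, the lanosterol demethylase, 0.09 (interval -0.22 to 0.40). Aacs, an acetoacetyl-CoA synthetase outside the list, had 0.22 (interval -0.09 to 0.53). Hmgcs1, Idi1, Msmo1 and Tm7sf2 also fell over 2-fold, but their intervals were wider than the margin. The median interaction of the list was 0.135 with 18 of 24 above 0, 0.017 with 13 above 0 without double knockdown replicate 3, and 0.216 without replicate 1.

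Addition also meant, for some genes, that only 1 of the losses counted. Lims2, a PINCH adhesion adaptor, stood at 2117, 1899 and 2512 with negative siRNA and 2015, 2231 and 2599 with Wwtr1 siRNA, but at 899, 798 and 736 with Yap siRNA and 806, 866 and 651 in the double knockdown. Its Yap effect was -1.42, its Wwtr1 effect 0.07 and its interaction -0.14 (interval -0.57 to 0.29). Sphkap, an anchor of protein kinase A, was the mirror image, with a Yap effect of -0.06, a Wwtr1 effect of -1.44 and an interaction of 0.03 (interval -0.49 to 0.54). Tnfrsf11b (osteoprotegerin, the decoy receptor for RANKL) fell with each: 10521, 11506 and 10794 in the negative siRNA libraries, 5281, 5556 and 6445 after Yap siRNA alone, 5853, 5519 and 6111 after Wwtr1 siRNA alone, and 2475, 2465 and 3461 after both. It had the largest additive fall, -1.98, with an interaction of -0.15 (interval -0.52 to 0.23).

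Additive rises were smaller in number. The largest were those of Stac2 (1.49), Cpt1a, which carries fatty acids into mitochondria (1.43), Sod3, the extracellular superoxide dismutase (1.43), the phospholipase Pla1a (1.41), Pxylp1 (1.22) and Pde4b, a cyclic AMP phosphodiesterase (1.22). Sod3 stood at 4703, 3328 and 4336 in the negative siRNA libraries, 7161, 6292 and 7408 after Yap siRNA alone, 6192, 5564 and 6011 after Wwtr1 siRNA alone, and 10265, 13289 and 9686 after both. Its interaction was 0.13 (interval -0.30 to 0.55). Of 16 collagen chains, Col16a1 and Col18a1 were additive rises. No collagen interaction was called by limma or edgeR, DESeq2 called 3, and without double knockdown replicate 3 limma called 1, Col11a1, named after its values were seen.

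The interferon-induced list departed most from addition on the log2 scale. All 33 genes with a mean of at least 100 were called higher after either single siRNA and after both. The medians for Yap, Wwtr1 and both were 3.06, 3.46 and 4.99 log2, against 6.41 for the sum, and the interaction lay below 0 in 33 of 33, with a median of -1.89. None was called after adjustment by limma or edgeR, 8 were by DESeq2, and 27 were below 0 at an unadjusted p under 0.05. The standard errors were wide, with a median of 0.759. On the scale of normalized counts, where single increments are summed and not multiplied, 18 of the 33 lay above the sum and 15 below. The direction of the departure thus depended on the scale. Without 1 library the log2 median ran from -2.593 to -1.414, and without double knockdown replicate 3 it was -1.851.

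Irf7, the transcription factor that amplifies the interferon response, stood at 197, 853 and 334 in the negative siRNA libraries, 10676, 7019 and 4047 after Yap siRNA alone, 13974, 8360 and 2988 after Wwtr1 siRNA alone, and 18272, 19059 and 17991 after both. The double knockdown was the highest group in every library, and the least spread relative to its mean. The log2 sum gives a level of 123238 and the linear sum 15226, against a measured 18435, and the interaction was -2.74 (SE 0.81, limma adjusted p = 0.138). Isg15, a ubiquitin-like modifier, had the same interaction of -2.74 (SE 1.01, limma adjusted p = 0.237), with 55.4, 251.9 and 74.4 with negative siRNA and 7643, 7108 and 4471 in the double knockdown. Ifi27 had -1.36 (SE 0.31, limma adjusted p = 0.0628), and it passed when limma took replicate number as a block. Its double knockdown (20234, 19516 and 18248) lay within the range of the single knockdowns (10883 to 21921). Oas, Mx and Ifit genes belong to families of near-identical copies, and their counts are uncertain.

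A called interaction was seen in 2 further interferon-responsive genes. Zbp1, a sensor of Z-form nucleic acid, was listed at 0 in all 3 negative libraries, at 179, 153 and 37.7 after Yap siRNA alone, 196, 94.9 and 45.7 after Wwtr1 siRNA alone, and 237, 277 and 324 after both. Its fitted interaction of -5.15 (SE 0.84, limma adjusted p = 0.0192) depends on the pseudocount, being -8.44 with 0.1 and -2.08 with 10, where the adjusted p was 0.21. The edgeR test on recovered reads gave an adjusted p of 0.0517, and without Wwtr1 siRNA replicate 2 the limma adjusted p was 0.0587. On the linear scale the measured 277 exceeded the sum of 236, so the sign turned. Apol9a, an apolipoprotein L family gene whose reads could be shared with its copies, had -3.78 (SE 0.75, limma adjusted p = 0.042). It stood at 85.2, 417.8 and 96.1 in the negative siRNA libraries, 3980, 3184 and 2009 after Yap siRNA alone, 5207, 4453 and 1958 after Wwtr1 siRNA alone, and 5413, 5571 and 4225 after both. Its call was lost in 10 of the 12 fits without 1 library. Of 23 sensors, adaptors and interferon transcription factors, Zbp1 and Stat3 were the genes called by limma, while edgeR called 0 and DESeq2 called 5.

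**Figure D3:**
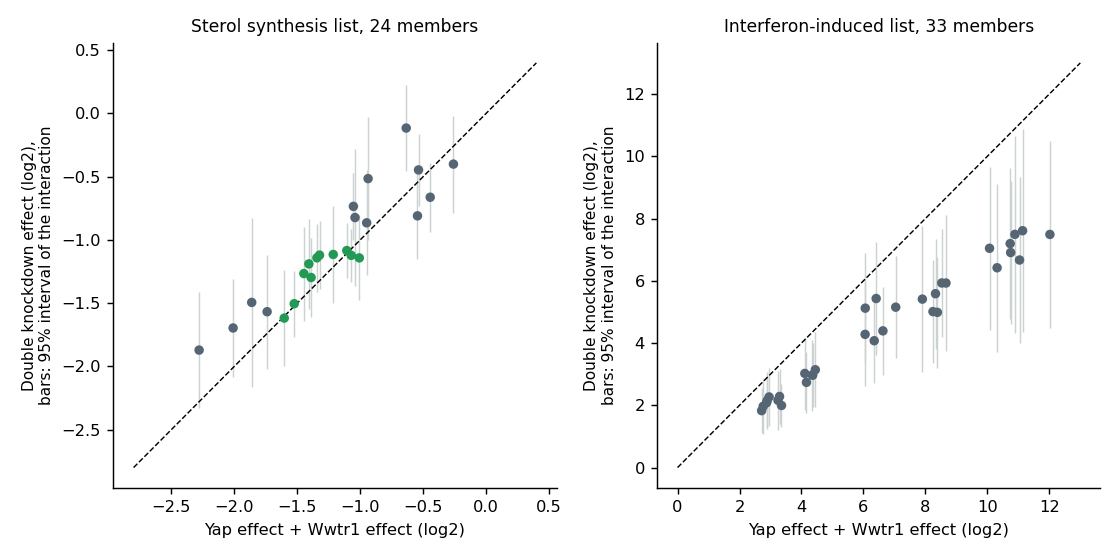
Double knockdown effect against the sum of the single effects (log2) for 24 sterol genes (left, additive ones green) and 33 interferon-induced genes (right); grey bars are the 95% interval of the interaction and the dashed line marks the sum. The sterol genes scatter around the line (median interaction 0.135) and all 33 interferon-induced genes lie below it (median -1.89).

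Antigen presentation genes followed the interferon list at smaller size. All 17 rose in the double knockdown, 12 with Yap siRNA and 14 with Wwtr1 siRNA, the median interaction was -0.27, and none was called by limma or edgeR and 1 by DESeq2, with 3 below 0 at an unadjusted p under 0.05. That median was -0.545 without Wwtr1 siRNA replicate 3, -0.06 without Wwtr1 siRNA replicate 1 and -0.17 without double knockdown replicate 3. On the scale of normalized counts 12 of the 17 lay above the sum and 5 below. B2m, the light chain of class I molecules, stood at 64286, 70817 and 71939 in the double knockdown against 20244 to 25382 with negative siRNA (interaction -0.35, SE 0.35, limma adjusted p = 0.72). The log2 sum gives 87845, the linear sum 69841 and the measured level was 68930.

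The integrated stress response list, genes of ATF4 that build and import amino acids, lay below addition. Of 23 genes 21 had an interaction below 0, the median was -0.373, and at an unadjusted p under 0.05 there were 15 below 0 and 2 above. Limma and edgeR called 3 and DESeq2 called 9. Shmt2, described above, was buffered. Pck2, mitochondrial phosphoenolpyruvate carboxykinase, fell in synergy (-0.75, SE 0.12, limma adjusted p = 0.0192), with 3464, 3922 and 3219 in the double knockdown and 4529 to 5784 elsewhere. Slc7a1, an arginine importer, crossed (-0.78, SE 0.16, limma adjusted p = 0.045). Pck2 lost its call without Wwtr1 siRNA replicate 2 (adjusted p = 0.0608) or Yap siRNA replicate 3, and Slc7a1 in 10 of the 12 such fits. The 3 called genes thus fell into 3 classes. Without 1 library the list median ran from -0.427 to -0.305.

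Most glycolysis genes had an interaction above 0. Of 23 genes 19 had an interaction above 0, the median was 0.24, and at an unadjusted p under 0.05 there were 9 above 0 and 2 below. Aldoc, an aldolase, was the 1 called by limma and edgeR, and DESeq2 called 4. It stood at 455, 415 and 412 in the negative siRNA libraries, 449, 352 and 358 after Yap siRNA alone, 316, 388 and 327 after Wwtr1 siRNA alone, and 634, 576 and 710 after both (interaction 1.05, SE 0.19, limma adjusted p = 0.0257), a call lost in 6 of the 12 fits without 1 library. The glucose carrier Slc2a1 had 0.61 (limma adjusted p = 0.0654) and Tpi1 0.48 (limma adjusted p = 0.0617). Over those fits the list median ran from 0.195 to 0.304. The 39 nuclear-encoded oxidative phosphorylation subunits had a median of -0.069. It ran from -0.102 without negative siRNA replicate 3 to -0.033 without Yap siRNA replicate 1. This list moved little, with a median double effect of -0.144 and 0 genes with a called double effect over 2-fold.

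Complement had the largest positive median of the 40 lists, 0.561, with 16 of 18 genes above 0, and depended on double knockdown replicate 3: without it the median was 0.281 with 12 above 0, and without replicate 1 it was 0.997. None was called by limma or edgeR, 1 was by DESeq2, and 2 were above 0 at an unadjusted p under 0.05. Cfb, factor B, stood at 441, 518 and 2445 in the double knockdown (interaction 0.71, SE 0.92, limma adjusted p = 0.796), and its interaction was -0.072 without replicate 3. Serping1, the C1 inhibitor, stood at 44451, 32789 and 60571, against 1734 to 12514 elsewhere (1.39, SE 0.64, limma adjusted p = 0.358). Mgp, the matrix Gla protein, stood at 72523, 43700 and 93258, against 13453 to 38790 elsewhere (1.13, SE 0.52, limma adjusted p = 0.355). For Serping1 and Mgp the double knockdown was the highest group in every library, but the departure from the sum did not pass.

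Contractile, adhesion, collagen, collagen modifying and chaperone lists had medians below 0. The median was -0.278 for 21 smooth muscle and myofibroblast genes (16 below 0), -0.249 for 27 integrin, focal adhesion and actin genes (21 below 0), -0.226 for 16 collagen chains (11 below 0), -0.2 for 19 collagen modifying enzymes (15 below 0) and -0.176 for 20 endoplasmic reticulum chaperones (17 below 0). P4ha1 was the only gene called among them by limma, and edgeR gave it an adjusted p of 0.0517. Hsp90b1, a chaperone, passed when limma took replicate number as a block. DESeq2 called 1 contractile, 4 adhesion, 3 collagen, 4 collagen modifying and 1 chaperone gene, against 470 of all 10102 genes. At an unadjusted p under 0.05, 4, 11, 5, 7 and 5 genes of these lists lay below 0. Acta2, smooth muscle actin, stood at 249844, 251358 and 338686 with negative siRNA and 132728, 165488 and 82853 in the double knockdown (interaction -0.18, SE 0.33, limma adjusted p = 0.869), and its interaction was 0.105 without double knockdown replicate 3. Without double knockdown replicate 3 the contractile median was -0.121 and the adhesion median -0.154. Over all 10102 genes the median was 0.004.

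Replication and mitosis genes showed no called interaction. The median was 0.175 for 38 replication genes and 0.066 for 37 mitosis genes, with 0 called in each by limma, edgeR and DESeq2 and 0 at an unadjusted p under 0.05. In the double knockdown 17 of the replication genes and 18 of the mitosis genes fell, against 3 and 4 with Wwtr1 siRNA and 0 with Yap siRNA. Mki67 stood at 4046, 3766 and 6795 in the double knockdown, highest in replicate 3. Without that library the medians were -0.026 and -0.052, so the direction of both turned. The replication median was 0.295 without double knockdown replicate 1, and the mitosis median 0.193 without Wwtr1 siRNA replicate 3.

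Of the genes that the study followed in these cells, which were chosen with these samples in view, Prss23 was the 1 of 13 called by limma and edgeR. The list median was -0.145, or -0.307 without double knockdown replicate 3 and -0.062 without Yap siRNA replicate 3. DESeq2 called 2. Tnfrsf11b was additive, as given above. Anxa2 had an interaction of 0.04 (interval -0.25 to 0.33), S100a10 of -0.26, Laptm4b of 0.15, Des of 0.51 and Lgals3bp of -0.79, none of them called. By limma and edgeR the remaining lists held at most 1 called gene: Npc1 among 15 cholesterol efflux genes (median 0.16, 3 called by DESeq2) and Mef2a, called but in no class (-0.79, limma adjusted p = 0.0286), among 21 cardiac fibroblast transcription factors (median 0.081, 2 called by DESeq2). By limma and edgeR no gene was called among 22 Wnt pathway genes (median 0.098), 22 AP-1 and immediate early factors (0.105), 28 lysosomal genes (0.132), 16 chemokines and cytokines (0.097), 14 fatty acid synthesis genes (0.042), 13 eicosanoid enzymes (0.241), 11 laminins and basement membrane linkers (-0.2), 20 cardiomyocyte markers (0.248), 10 endothelial markers (0.006), 5 mesothelial genes (-0.378) or 13 fibroblast markers (-0.085). DESeq2 called 1 gene each in the Wnt, fatty acid, eicosanoid and fibroblast lists and 0 in the others. At an unadjusted p under 0.05 these lists held 0 to 5 genes above 0 and 0 to 3 below. The median was -0.06 for growth factors and -0.074 for the Notch list.

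Many of these medians moved with a single library. Double knockdown replicate 3 gave the lowest value when left out for chemokines (-0.024), fatty acid synthesis (-0.044), AP-1 factors (-0.003), eicosanoid enzymes (0.068), cholesterol efflux (0.078) and endothelial markers (-0.229), and without it the lysosomal median was 0.068, the basement membrane median -0.076, the growth factor median -0.008 and the Notch median -0.134. The cardiomyocyte median ran from -0.088 without Yap siRNA replicate 3 to 0.597 without negative siRNA replicate 3. The fibroblast median ran from -0.167 without Wwtr1 siRNA replicate 3 to 0.042 without Wwtr1 siRNA replicate 1. The basement membrane median ran from -0.369 without Yap siRNA replicate 1 to -0.07 without Yap siRNA replicate 2, and the Wnt median from 0.031 without Yap siRNA replicate 1 to 0.213 without double knockdown replicate 1. Growth factors turned to 0.027 without Yap siRNA replicate 3 and the Notch list to 0.027 without Wwtr1 siRNA replicate 3. The transcription factor median was 0.018 without negative siRNA replicate 1. The high ends were 0.305 for chemokines, 0.115 for fatty acid synthesis, 0.176 for AP-1 factors, 0.502 for eicosanoid enzymes, 0.391 for cholesterol efflux and 0.244 for endothelial markers. Of the 10 endothelial markers 6 were called higher in the double knockdown, and 0 lower.

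**Figure D4:**
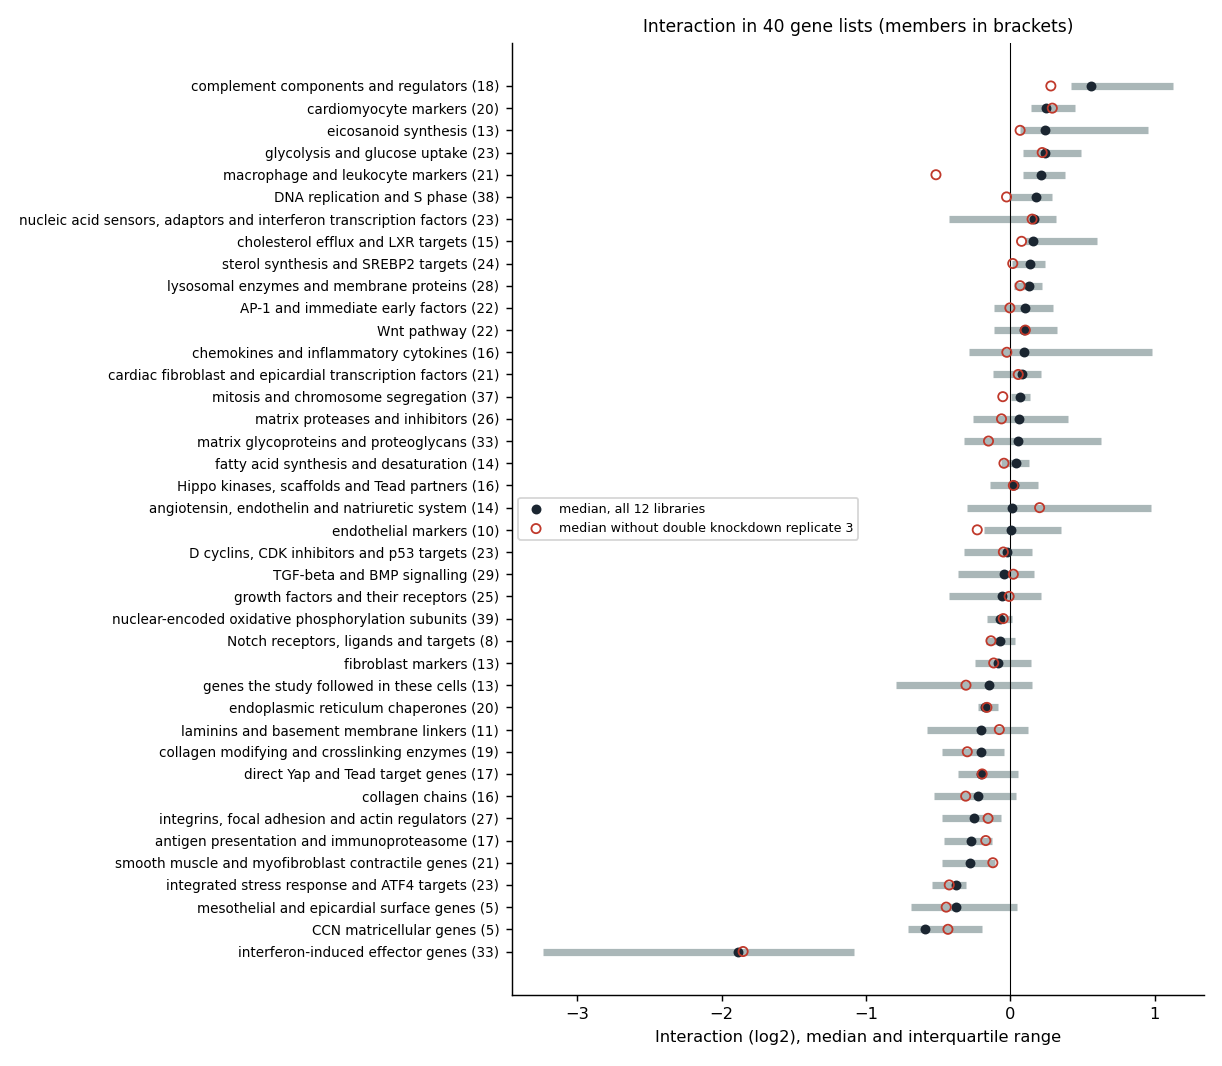
Median interaction (log2, filled points) of the members of 40 gene lists with the interquartile range (grey bars), and the median without double knockdown replicate 3 (open red points). The interferon-induced list lies far below 0 (-1.89), the macrophage list moves from 0.211 to -0.515, and most other lists lie between -0.4 and 0.3.

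How far a call depended on single libraries was read from the 12 fits that left out 1 each. In 24 of the 115 genes the call was made in all 12, and also under each of 9 other settings of scaling, filter, pseudocount, block and tool. They are Agt, Csf2rb, Nabp1, Rgs2, Cp, Notch1, Mmp2, Cdk19, Btg1, Galnt2 and Abr above 0, and Zbtb7c, Cgref1, Efnb2, Shmt2, Psen2, Ccnd1, Amotl2, Nucb2, Abhd17c, Wwc2, Spats2l, Trappc3 and Tmed3 below 0. Of these 12 were synergy, 8 buffering and 4 crossing, and 10 fell outside the naming rule and were named after their values were seen. In 68 of the 115 the call was lost in 6 or more of the 12 fits.

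Some of these 10 had small but regular departures. Galnt2, the enzyme that starts mucin-type O-glycans, stood at 5147, 4944 and 5079 in the negative siRNA libraries, 5662, 5173 and 5191 after Yap siRNA alone, 4320, 4129 and 4255 after Wwtr1 siRNA alone, and 7746, 6921 and 7511 after both (interaction 0.72, SE 0.09, limma adjusted p = 0.00518). Tmed3, a cargo receptor of the early secretory pathway, stood at 3238, 2964 and 2952 in the negative siRNA libraries, 5519, 5183 and 4956 after Yap siRNA alone, 4175, 4204 and 3945 after Wwtr1 siRNA alone, and 4391, 4201 and 4357 after both (interaction -0.70, SE 0.09, limma adjusted p = 0.00524). The double knockdown of Tmed3 thus sat with Wwtr1 siRNA and below Yap siRNA. Trappc3, a vesicle tethering subunit, was also buffered (-0.78, SE 0.10, limma adjusted p = 0.00524), and Btg1, an anti-proliferative factor, crossed upward (0.84, SE 0.11, limma adjusted p = 0.00524).

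**Figure D5:**
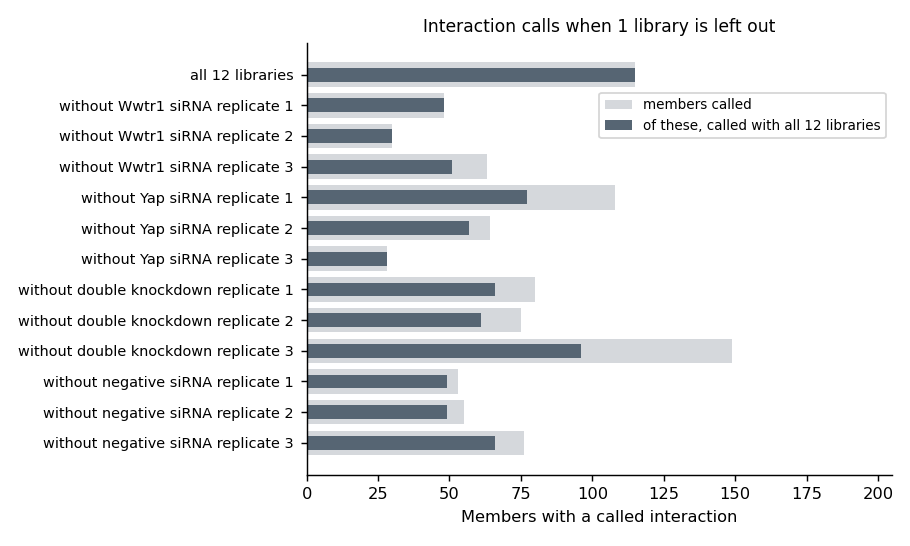
Number of genes with a called interaction with all 12 libraries (115) and after leaving out each library in turn (light bars), and how many of those were also called with all 12 (dark bars). The counts run from 28 without Yap siRNA replicate 3 to 149 without double knockdown replicate 3.

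The number of calls moved by over 1.5 times with 9 of the 12 libraries. It was 28 without Yap siRNA replicate 3, 64 without Yap siRNA replicate 2, 48, 30 and 63 without Wwtr1 siRNA replicates 1, 2 and 3, 53, 55 and 76 without negative siRNA replicates 1, 2 and 3, and 75 without double knockdown replicate 2. Leaving out Yap siRNA replicate 1 gave 108, double knockdown replicate 1 gave 80 and double knockdown replicate 3 gave 149. Of the 115 genes, 96 were called without double knockdown replicate 3. No called interaction changed sign in any of these fits.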

How the data were processed

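RNA of 12 bulk libraries (4 groups of 3) was sequenced by the authors, who per the labels used Trim Galore 0.6.5, HISAT2, StringTie and DESeq2 on build rn6. The deposited signal values are read counts that the authors divided by 1 size factor per library. All 147252 values (100%) returned to whole reads within 0.02 reads. In 6 of the 12 columns an automatic check of the step did not accept this, so depth, edgeR and DESeq2 rest there on the spacing of low values alone. Deposited fold changes and p-values of the authors' comparisons (baseMean, fold change, its error and p) were not used, nor was a duplicate table.

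Values were tested as log2(value + 1), so fold changes of low genes are understated, with limma 3.58.1 (R 4.3.3, lmFit and eBayes with trend, 2-sided, Benjamini-Hochberg over 11871 genes with a mean of at least 10). All 12 libraries shared 1 estimate of the spread. Classes used an adjusted p of 0.05 and 95% intervals. edgeR 4.0.16 and DESeq2 1.42.0 on recovered reads, other filters, scalings and pseudocounts, a replicate block and fits without each library were alternatives. The fit was checked on simulated data. Genes named are the targets, the CCN and studied genes, the 12 largest called interactions in each direction, the 6 largest additive rises and falls, and the called genes of each list, or up to 3 of largest mean where a list had none. Slc2a1, Tpi1, Cx3cr1, Col11a1, Hmgcs1, Idi1, Msmo1, Tm7sf2, Col16a1, Col18a1 and the promoters shown were added after their values were seen. The members and lists were chosen with earlier results of these data known.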

Additional observations from a re-analysis of the deposited data

Results flagged for a closer look

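An interaction is itself a test of whether 1 knockdown had a different effect in the presence of the other, and 115 genes passed it (limma, Benjamini-Hochberg). Those named by rule are given here as log2 interactions. Above 0 were Agt (4.828), Csf2rb (3.561), Prg4 (2.935), Adcyap1r1 (2.727), Ass1 (2.6), Tmem178a (2.355), Ypel4 (2.049), Enc1 (1.865), Tgfbi (1.83), Nabp1 (1.821), Mgst2 (1.771), Rgs2 (1.587), Notch1 (1.13), Mmp2 (1.116), Aldoc (1.047), Emilin1 (0.627), Stat3 (0.423) and Npc1 (0.413).

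Below 0 were Zbp1 (-5.145), Apol9a (-3.78), Zbtb7c (-2.004), Adamtsl3 (-1.713), Cgref1 (-1.654), Efnb2 (-1.588), Prss12 (-1.515), Bc1 (-1.48), Gdf6 (-1.4), Tnik (-1.365), Shmt2 (-1.242), Psen2 (-1.219), Ccnd1 (-1.186), Bmp4 (-1.025), Prss23 (-0.976), Amotl2 (-0.967), Bmp6 (-0.937), Wwc2 (-0.889), Mef2a (-0.787), Slc7a1 (-0.785), Pck2 (-0.747), Vegfc (-0.661) and P4ha1 (-0.598). Prss12, neurotrypsin, was buffered, and edgeR gave it an adjusted p of 0.0517. No test of outlying samples was run in groups of 3 libraries, and the distance of double knockdown replicate 3 from its group is given in the report.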

How the results depend on the processing

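The 115 interaction calls became 470 with DESeq2, 49 with limma without trend and 28 to 149 without 1 library. Synergy genes (65) became 261, 30 and 17 to 94 under these settings, and buffering genes (34) 153, 14 and 8 to 39. Additive genes (42) became 199 with a 2-fold margin and ran from 28 to 52 without 1 library. edgeR (97 interaction calls), TMM scaling (121), no filter (113), a mean of at least 100 (149), pseudocounts of 0.1 (110) and 10 (140) and genes above 0 in all libraries (114) stayed within 1.5 times. No called interaction of a named gene changed sign on the log2 scale, and 1, that of Zbp1, did on the linear scale (33 of the 34 buffering genes kept theirs). edgeR gives no interval, so the additive class was not run with it. With DESeq2, Ccn1 (adjusted p = 0.00234), Ccn5 (0.0352), Irf7 (0.0449) and Ifi27 (0.000239) passed, and with edgeR Gdf6 (0.051) did not.

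Deviations of same-numbered libraries correlated from 0.104 to 0.276 among the negative, Yap and Wwtr1 siRNA groups and from -0.127 to 0.18 with the double knockdown, so the numbers did not pair all 4 groups. With the replicate block 224 interactions were called, with 127 synergy, 69 buffering and 65 additive genes. Of the named genes, Ccn5 (adjusted p = 0.0476), Ifi27 (0.0126) and Hsp90b1 (0.0462) passed with the block and not without it.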
